A study of Homo sapiens with 18 samples.

Results

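The nuclear lamina genes LMNB1, LMNB2, LMNA, LBR, TMPO and EMD and the high mobility group box genes HMGB1, HMGB2 and HMGB3 were followed in the human bladder cancer lines J82 and RT112 exposed to palbociclib, which blocks the kinases CDK4 and CDK6. A gene was taken where a transcript cluster of the array carried its symbol alone, and all 9 members were found, each on 1 probe set, among 22465 genes with 1 symbol. The 4 groups were J82 treated with PBS (control), J82 treated with palbociclib at its IC50, RT112 treated with PBS and RT112 treated with palbociclib at its IC50, with 3 arrays in each. Each group held replicates of 1 established line, so p-values measure the spread between those replicates. Dose in molar units and time of exposure are not given in the sources used here, and the 6 arrays of the other line, 5637, were not used.

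The lamina is a meshwork of lamin filaments beneath the inner nuclear membrane, to which membrane proteins such as emerin, the lamin B receptor and the LAP2 proteins tie chromatin. HMGB proteins are abundant nuclear proteins that bend DNA and loosen nucleosomes. Loss of lamin B1 and of nuclear HMGB2 are widely used marks of senescent cells, and HMGB1 can leave the nucleus of stressed cells and act outside them as an alarm signal. CDK4 and CDK6 phosphorylate RB, and their inhibition holds RB-proficient cells in G1, where E2F target genes are repressed.

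Promoters of 8 of the 9 members were matched by symbol in RefSeq (GRCh38.p14), 15 in all, each running from 250 bases before to 50 bases after a start site. The 4 below belong to the lamina gene with the largest fall, to the classical senescence mark, to a member whose response differed between the lines, and to the lamin with no called change. Capitals mark matches, on either strand, to E2F site cores (TTCCCGC or TTGGCGC), to the cell cycle homology region core (TTTGAA) or to the CCAAT box (CCAAT). None of these motifs contains another.
TMPO: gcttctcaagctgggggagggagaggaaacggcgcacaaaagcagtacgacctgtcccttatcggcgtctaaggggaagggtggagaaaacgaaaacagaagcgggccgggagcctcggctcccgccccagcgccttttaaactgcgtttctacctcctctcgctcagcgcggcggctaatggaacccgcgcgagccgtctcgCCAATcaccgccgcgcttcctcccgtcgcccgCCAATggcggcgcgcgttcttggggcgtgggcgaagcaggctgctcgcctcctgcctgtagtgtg
LMNB1: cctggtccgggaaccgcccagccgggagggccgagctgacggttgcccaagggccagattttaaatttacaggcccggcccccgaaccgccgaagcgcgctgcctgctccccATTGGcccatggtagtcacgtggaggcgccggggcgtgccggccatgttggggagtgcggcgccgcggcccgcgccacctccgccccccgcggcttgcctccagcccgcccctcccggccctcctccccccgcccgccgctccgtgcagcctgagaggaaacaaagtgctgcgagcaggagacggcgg
HMGB1: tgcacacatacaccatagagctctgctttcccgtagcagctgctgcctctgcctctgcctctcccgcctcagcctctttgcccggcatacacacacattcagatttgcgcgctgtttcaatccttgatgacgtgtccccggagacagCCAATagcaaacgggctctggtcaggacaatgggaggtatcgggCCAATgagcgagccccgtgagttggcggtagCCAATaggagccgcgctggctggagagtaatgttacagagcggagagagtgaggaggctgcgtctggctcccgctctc
LMNA: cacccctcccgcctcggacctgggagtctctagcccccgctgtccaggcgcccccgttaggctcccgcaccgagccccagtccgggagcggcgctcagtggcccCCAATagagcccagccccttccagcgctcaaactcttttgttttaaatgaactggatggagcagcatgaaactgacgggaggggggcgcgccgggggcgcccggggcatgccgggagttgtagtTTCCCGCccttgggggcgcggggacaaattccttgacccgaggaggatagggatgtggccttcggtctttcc
These are chr12:98515323-98515622 on the plus strand for TMPO, chr5:126776886-126777185 on the plus strand for LMNB1, chr13:30465887-30466186 on the minus strand for HMGB1 and chr1:156082323-156082622 on the plus strand for LMNA. The CCAAT box was in 8 of the 15 member promoters (53.3%), against 34.6% of 35116 RefSeq promoters of the same length. In the printed promoters it lay 47 and 15 bases before the TMPO start and 138 bases before the LMNB1 start. For the printed HMGB1 promoter it lay 103, 59 and 28 bases before the start. Each printed promoter held at least as many matches as any other of its gene. LMNB1 and HMGB1 each had another start with 0 matches, and the other LMNA promoters also held 0. The core TTCCCGC was in 1 member promoter, the printed one of LMNA at 22 bases before its start, and in 6.55% of all promoters. TTGGCGC was in 0 member promoters and in 3.04% of all. TTTGAA was in 3, of LMNB2, HMGB1 at another start and HMGB3, and in 15.2% of all. A match describes letters in a window, and several start sites of 1 gene are not independent.

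Values are log2 summarised intensities as deposited, and differences are palbociclib minus control on that scale with the standard error (SE) from limma. How the deposited scale relates to RNA amount is unknown, so a log2 difference is not read as a fold change of RNA. Array medians over the 22465 genes ran from 5.31 to 5.61, the highest being that of RT112 palbociclib replicate 1, which also had the lowest array weight estimated by limma (0.113). The RT112 differences of the 9 genes are therefore also given without that array. RT112 carried epithelial and urothelial markers (KRT5 15.5, KRT13 15.5, CDH1 13.5 and UPK1B 9.83 in controls). In J82 controls KRT13 (5.60), CDH1 (5.68), EPCAM (5.57) and UPK1B (5.04) lay close to or below the array medians, and CDH2 stood at 12.9 and KRT18 at 14.4. Of the 16 measured epithelial and urothelial markers, 5 were below the median on each J82 control array and 3 on each RT112 control array. In limma 10 of the 16 were higher in RT112 controls and 2 lower (adjusted p under 0.05), against 12.8% and 14.7% of all genes. Of 7 measured mesenchymal markers 1 was higher in RT112 controls and 5 lower. The group means of UPK1A, UPK3A and KRT20 were below the median of every array, as were those of the leukocyte markers PTPRC, CD3E and LYZ and of all 4 endothelial markers. The other measured leukocyte marker, CD68, a lysosomal protein, stood above them, with group means of 10.8 and 10.7 in J82 and 7.49 and 7.72 in RT112 without and with palbociclib.

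In RT112 palbociclib lowered 7 of the 9 genes, TMPO, LMNB1, HMGB2, LBR, HMGB1, HMGB3 and LMNB2, and raised none. The largest log2 differences were -2.40 for TMPO, -1.82 for LMNB1 and -1.81 for HMGB2, and LMNA (0.23) and EMD (-0.18) passed in neither direction. In these bulk RNA samples fewer cells expressing a gene and less RNA per cell cannot be told apart. In J82 LMNB1 (-0.68) and TMPO (-0.72) fell, and no gene rose. The median over the 9 genes was -1.11 in RT112 and -0.20 in J82, where the median of all genes was 0.035 and 0.04. At an adjusted p under 0.05, 3.53% of all genes were lower in RT112 and 2.78% in J82, 0.494% were lower in both, and 4.95% and 5.4% were higher. At an unadjusted p under 0.05 limma gave 7 lower and 0 higher members in RT112 and 3 lower and 0 higher in J82. With array weights all 9 members passed at that unadjusted threshold in RT112, and 7 by the adjusted p.

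**Figure D1:**
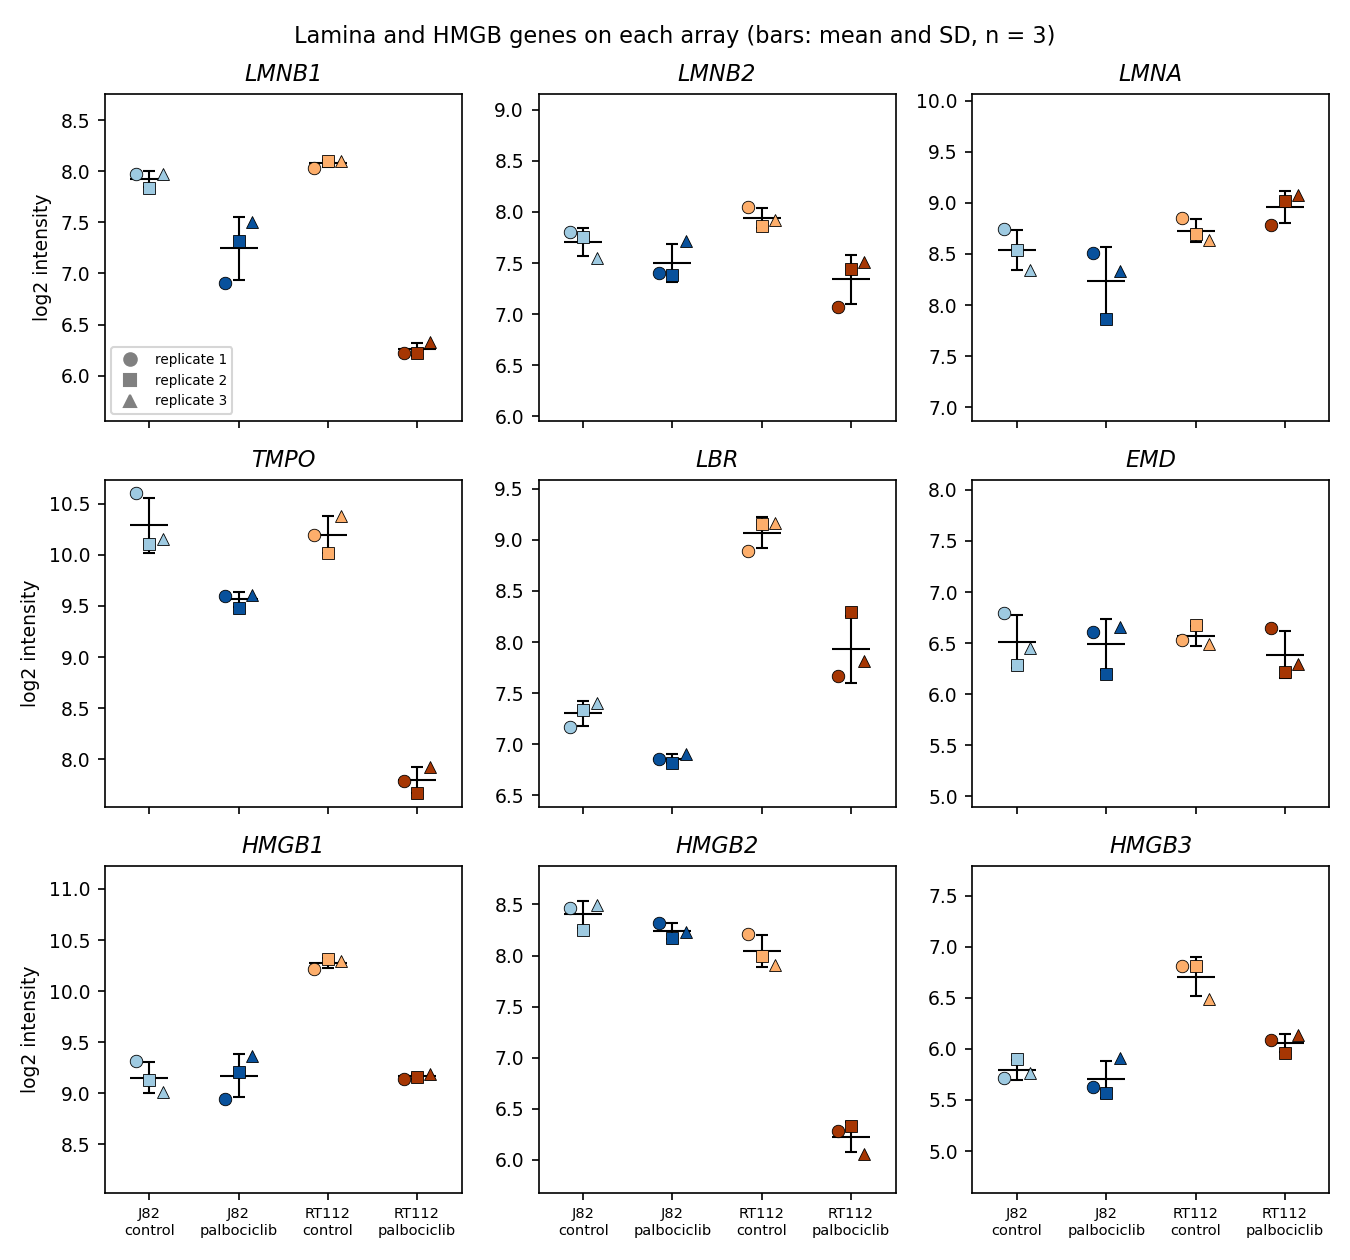
Log2 intensity of the 9 genes on each of the 12 arrays; symbols are replicates, horizontal bars the group mean and vertical bars the SD (n = 3). Every panel spans the same range. LMNB1, TMPO, HMGB1 and HMGB2 sit lowest in RT112 under palbociclib or, for HMGB1, level with J82, whereas LMNA and EMD overlap between treatments.

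Among the lamins, LMNB1 encodes lamin B1, a B-type lamin that stays farnesylated and attached to the membrane. Its log2 intensity was 8.03, 8.10 and 8.10 on the RT112 control arrays and 6.22, 6.22 and 6.33 under palbociclib. The groups lay far apart beside their own spread (SD 0.039 and 0.063). The difference was -1.82 ± 0.14 (SE, n = 3 per group, adjusted p = 1.49e-06), the 162nd lowest of 22465 genes. It was -1.80 without palbociclib replicate 1.

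In J82 LMNB1 stood at 7.98, 7.84 and 7.97 in controls and at 6.91, 7.32 and 7.51 under palbociclib. All treated arrays were below all controls, as for 7.82% of genes in that line, and the treated arrays spread more widely (SD 0.309 against 0.079). The difference was -0.68 ± 0.14 (adjusted p = 0.00884). With J82 fitted alone the same difference had an adjusted p of 0.0663, so the call rests on a spread estimated over both lines.

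LMNB2, which encodes the other B-type lamin, read 8.05, 7.86 and 7.92 in RT112 controls and 7.07, 7.44 and 7.51 under palbociclib. The groups did not overlap, which held in the lower direction for 8.26% of genes. The difference was -0.60 ± 0.15 (adjusted p = 0.0218), and -0.47 (adjusted p = 0.0453) without palbociclib replicate 1. The call was lost without control replicate 1 (adjusted p = 0.0998), control replicate 2 (0.0542) or control replicate 3 (0.0672), and when array medians were made equal (0.0566). In J82 the difference was -0.20 ± 0.15 (adjusted p = 0.582), with overlapping arrays between 7.38 and 7.81.

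LMNA encodes lamins A and C by alternative splicing, and its transcript cluster sums both. RT112 arrays read 8.85, 8.70 and 8.64 in controls and 8.78, 9.02 and 9.08 under palbociclib. J82 arrays read 8.74, 8.54 and 8.35 in controls and 8.51, 7.86 and 8.33 under the drug. The arrays of each line overlapped between treatments, in RT112 through palbociclib replicate 1 alone. The difference was 0.23 ± 0.18 in RT112 (95% confidence interval -0.15 to 0.61, adjusted p = 0.633) and -0.31 ± 0.18 in J82 (-0.68 to 0.07, adjusted p = 0.401). Without palbociclib replicate 1 the RT112 difference was 0.32 (adjusted p = 0.296). The interval over all RT112 arrays leaves out a fall of the size seen for either B-type lamin in that line.

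TMPO encodes the LAP2 proteins, among them LAP2-beta of the inner nuclear membrane, which binds B-type lamins, and the nucleoplasmic LAP2-alpha, which binds A-type lamins and RB. Its transcript cluster does not separate these isoforms. RT112 arrays read 10.2, 10.0 and 10.4 in controls and 7.79, 7.67 and 7.93 under palbociclib. The groups were further apart than for any other of the 9 genes. The difference was -2.40 ± 0.16 (adjusted p = 3.6e-07), the 71st lowest of all genes, and -2.40 without palbociclib replicate 1. J82 arrays read 10.6, 10.1 and 10.2 in controls and 9.60, 9.48 and 9.61 under the drug, again without overlap. The difference there was -0.72 ± 0.16 (adjusted p = 0.0137). Its adjusted p was 0.0763 with J82 fitted alone and 0.0616 without J82 control replicate 1, the highest control, where the difference was -0.57.

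LBR encodes the lamin B receptor, an inner membrane protein that binds lamin B and HP1 and also carries a sterol reductase activity of cholesterol synthesis. RT112 arrays read 8.89, 9.15 and 9.16 in controls and 7.67, 8.30 and 7.82 under palbociclib. The difference was -1.14 ± 0.16 (adjusted p = 0.000349), and -1.01 without palbociclib replicate 1, the lowest of the treated arrays. J82 arrays read 7.17, 7.33 and 7.40 in controls and 6.85, 6.82 and 6.91 under the drug. They did not overlap, but the difference of -0.44 ± 0.16 did not pass (adjusted p = 0.119), and passed only after a second quantile normalization (-0.52, adjusted p = 0.0368) among the alternatives run.

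EMD encodes emerin, which binds A-type lamins and the chromatin protein BAF. Its arrays ran from 6.49 to 6.68 in RT112 controls and from 6.22 to 6.65 under palbociclib. In J82 they ran from 6.29 to 6.80 and from 6.20 to 6.66. Treated and control arrays overlapped in each line, in RT112 through palbociclib replicate 1 (6.65) alone. The differences were -0.18 ± 0.17 (adjusted p = 0.742) and -0.02 ± 0.17 (adjusted p = 0.986), with intervals of -0.53 to 0.18 and -0.38 to 0.33. Without palbociclib replicate 1 the RT112 difference was -0.31 (adjusted p = 0.248).

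Among the HMGB genes, HMGB2 is known for its high expression in dividing cells. RT112 arrays read 8.21, 7.998 and 7.91 in controls and 6.29, 6.33 and 6.06 under palbociclib. Every treated array lay more than 1 log2 unit below every control. The difference was -1.81 ± 0.13 (adjusted p = 7.32e-07), the 163rd lowest of all genes, and -1.85 without palbociclib replicate 1. J82 arrays read 8.46, 8.25 and 8.50 in controls and 8.32, 8.17 and 8.23 under the drug. These overlapped, and the difference of -0.16 ± 0.13 had an interval of -0.45 to 0.12 (adjusted p = 0.639).

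HMGB1 arrays of RT112 read 10.2, 10.3 and 10.3 in controls and 9.14, 9.16 and 9.19 under palbociclib. The spread within either group (SD 0.053 and 0.024) was small beside the gap. The difference was -1.11 ± 0.15 (adjusted p = 0.000197), and -1.10 without palbociclib replicate 1. J82 arrays read 9.32, 9.13 and 9.01 in controls and 8.94, 9.21 and 9.36 under the drug. They overlapped, with a difference of 0.02 ± 0.15 (interval -0.29 to 0.33, adjusted p = 0.986) whose sign turned when array medians were made equal. Under palbociclib the mean was 9.17 in either line (SD 0.211 in J82 and 0.024 in RT112), a pair of values that was not tested.

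HMGB1 has processed pseudogenes of near-identical sequence, and 2 rows of the array named for them moved with it in RT112. HMGB1P5 fell by 1.63 (adjusted p = 0.000225 over all transcript cluster rows) and HMGB1P4 fell by 1.64 (adjusted p = 0.000385). In J82 they differed by -0.05 (adjusted p = 0.981) and -0.47 (adjusted p = 0.295). Another pseudogene row, HMGB1P24, differed by -0.08 in RT112 (adjusted p = 0.979) and by -0.56 in J82 (adjusted p = 0.128). Group means without and with palbociclib were 13.4 and 13.3 in J82 and 14.7 and 13.1 in RT112 for HMGB1P5. They were 9.78 and 9.31 in J82 and 11.5 and 9.88 in RT112 for HMGB1P4. The HMGB1 row itself stood at 9.15 and 9.17 in J82 and 10.3 and 9.17 in RT112. Probe sequences were not examined, so whether the array separates signal of HMGB1 from that of the pseudogene copies is unknown. The size of the HMGB1 fall, and the equal treated means of the 2 lines, therefore hold for its own row only. Rows named for HMGB3 pseudogenes did not pass in RT112: HMGB3P1 differed by 0.07, HMGB3P22 by -0.16 and HMGB3P30 by 0.05. TMPO-AS1, antisense to TMPO by its name, differed by -0.56 in RT112 (adjusted p = 0.107) and 0.10 in J82 (adjusted p = 0.935). These rows were chosen after values were seen.

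HMGB3, expressed in stem and progenitor cells in the mouse, read 6.81, 6.82 and 6.49 in RT112 controls and 6.08, 5.96 and 6.14 under palbociclib. The groups did not overlap, and the difference was -0.65 ± 0.13 (adjusted p = 0.00523; -0.66 without palbociclib replicate 1). In J82 the arrays ran from 5.72 to 5.90 in controls and from 5.57 to 5.91 under the drug, a difference of -0.09 ± 0.13 (adjusted p = 0.86). The interval in J82 was -0.36 to 0.18. These values lay not far above the medians of the J82 arrays (5.34 to 5.50), and whether that limited a visible fall was not tested.

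**Figure D2:**
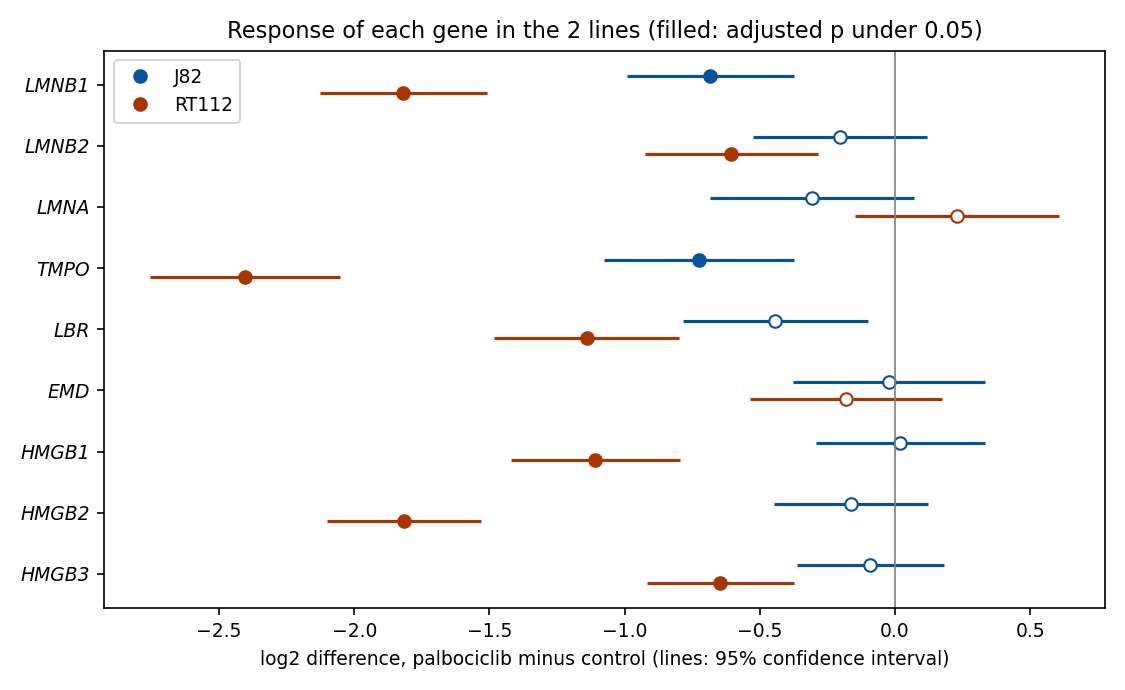
Log2 difference, palbociclib minus control, of each gene in J82 (blue) and RT112 (brown) with its 95% confidence interval; filled points passed at an adjusted p under 0.05. The intervals of the 2 lines do not overlap for LMNB1, TMPO, LBR, HMGB1, HMGB2 and HMGB3, of which LBR and HMGB3 did not pass the test of the difference.

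The response was larger in RT112 than in J82 for 4 genes, tested as the RT112 response minus the J82 response. This difference was -1.68 ± 0.23 for TMPO (adjusted p = 0.000586), -1.65 ± 0.19 for HMGB2 (adjusted p = 0.000112), -1.14 ± 0.20 for LMNB1 (adjusted p = 0.00444) and -1.13 ± 0.21 for HMGB1 (adjusted p = 0.00509). Over all genes 2.74% passed in that direction and 1.83% in the other. The call held for all 4 genes in each of the 12 fits that left out 1 array. For LBR the difference was -0.70 (interval -1.18 to -0.22, adjusted p = 0.112) and for HMGB3 -0.55 (-0.94 to -0.17, adjusted p = 0.112). For LMNB2 it was -0.40 (-0.86 to 0.05), for EMD -0.16 (-0.66 to 0.35) and for LMNA 0.54 (0.0034 to 1.07, adjusted p = 0.337).

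Before treatment 3 genes stood higher in RT112 than in J82. The control difference was 1.77 ± 0.16 for LBR (adjusted p = 8.53e-07), 1.12 ± 0.15 for HMGB1 (adjusted p = 3.2e-05) and 0.91 ± 0.13 for HMGB3 (adjusted p = 6.04e-05). Over all genes 12.8% were higher and 14.7% lower in RT112 controls. HMGB2 had a difference of -0.36 ± 0.13 (adjusted p = 0.0563), and LMNB1 0.15, LMNB2 0.24, LMNA 0.19, TMPO -0.09 and EMD 0.05 did not pass. These differences use the same control arrays as the responses, so a low or high control array enters both.

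Within an array, LMNB1 changed against LMNA by -2.05 in RT112, and against LMNB2 by -1.21. HMGB2 changed against HMGB1 by -0.71 and against HMGB3 by -1.17. In each of these 4 comparisons the treated arrays of RT112 did not overlap its controls, and the two-sided exact permutation test gave p = 0.1, the smallest that 3 arrays against 3 allow (adjusted p = 0.16 over 8 tests). In J82 LMNB1 changed against LMNB2 by -0.48, also without overlap (exact permutation p = 0.1). The values in J82 were -0.38 for LMNB1 against LMNA, -0.18 for HMGB2 against HMGB1 and -0.07 for HMGB2 against HMGB3, with overlapping arrays (exact permutation p = 0.4, 0.4 and 0.5). The value of LMNB1 against LMNA in J82 ran from -0.60 to -0.07 when 1 array was left out. How often other pairs of genes lay apart was not determined.

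**Figure D3:**
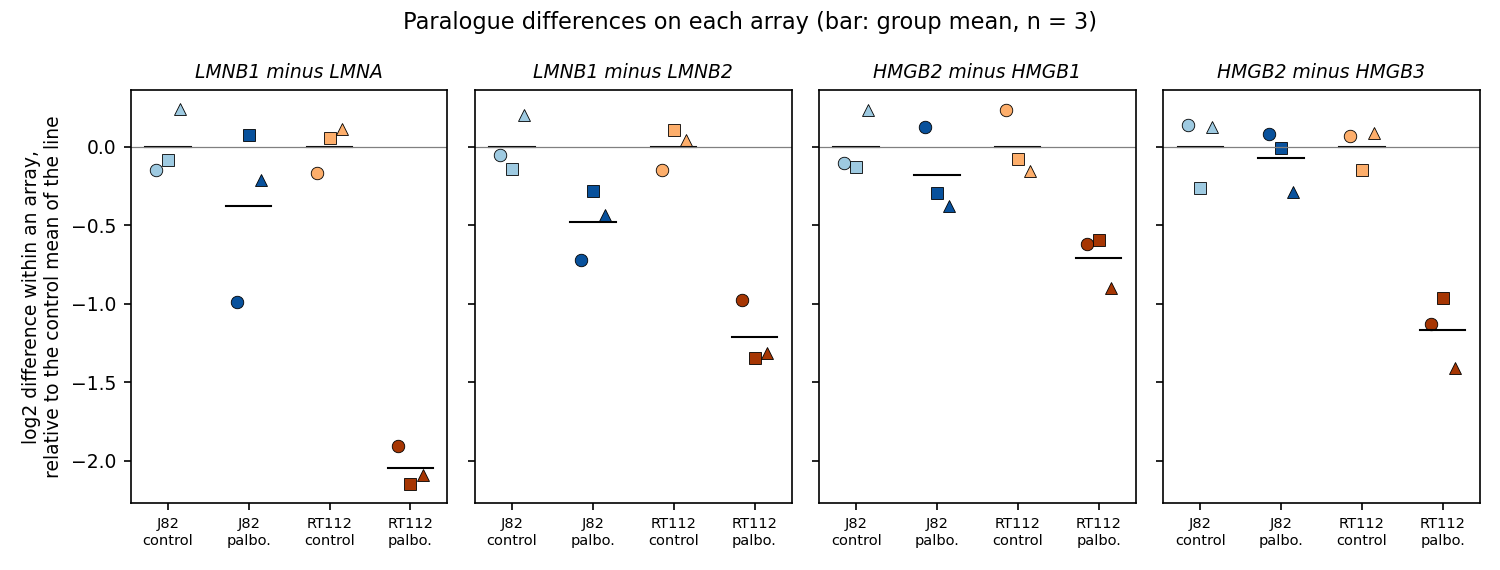
Log2 difference between 2 related genes on each array, set to 0 at the control mean of the line; symbols are replicates and bars group means (n = 3). All RT112 palbociclib arrays lie below the controls in the 4 panels, with group means of -2.05, -1.21, -0.71 and -1.17, and J82 arrays overlap except for LMNB1 minus LMNB2.

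Across the 12 arrays, with the mean of each line removed, the 7 genes that fell in RT112 correlated with each other at r = 0.775 or above. LMNA correlated with the other 8 at -0.36 to 0.20 and EMD at 0.17 to 0.40. The genes share these arrays, and the treatment effect in RT112 is the main source of their variation. Of 11231 other genes above the median level, those nearest in pattern to LMNB1 were TOP2A, the topoisomerase that disentangles chromosomes (r = 0.990), MYBL1 (0.988), the mitotic kinesins KIF14 (0.986) and KIF23 (0.985) and LSM2 (0.985), an RNA-binding protein of the spliceosome. Those nearest to HMGB2 were the histone genes H2BC13 (r = 0.989) and H2BC10 (0.985), WDR76 (0.985), the chromatin ATPase ATAD2 (0.983) and CLSPN (0.983), which encodes the replication checkpoint protein claspin. The J82 differences of the genes nearest to LMNB1 were -1.13 for TOP2A, -0.96 for KIF14, -0.82 for MYBL1, -0.76 for KIF23 and -0.17 for LSM2. Those of the genes nearest to HMGB2 were -0.69 for H2BC10, -0.32 for ATAD2, -0.27 for WDR76, -0.23 for CLSPN and -0.19 for H2BC13.

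Other genes of the nuclear envelope, pore and chromatin were read from 9 lists, of whose 108 entries 100 were measured. The list counts stand beside the shares over all genes at an adjusted p under 0.05. These were 3.53% lower and 4.95% higher in RT112, and 2.78% lower and 5.4% higher in J82. Of 20 genes of the nuclear envelope and of the LINC complex, which couples the nucleus to the cytoskeleton, 5 fell and 1 rose in RT112 (median -0.03). They were the envelope protein NEMP1 (-1.95 ± 0.27), VRK1, the kinase that releases BAF from DNA (-1.30 ± 0.24), the nesprin SYNE2 (-0.93 ± 0.16), the lamin-binding protein TOR1AIP1 (-0.71 ± 0.17), TMEM201 (-0.46 ± 0.11) and, upward, TMEM43 (0.68 ± 0.19). The count of 6 was 3 without RT112 control replicate 2, palbociclib replicate 2 or palbociclib replicate 3. In J82 limma called 0 of the 20 (2 lower and 3 higher at an unadjusted p under 0.05). The LEM-domain genes LEMD2 and LEMD3, the BAF gene BANF1 and the SUN genes did not pass in either line.

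Of 26 nuclear pore genes 13 fell in RT112 and none rose, with a median of -0.62 (0 higher by the adjusted p, 1 at an unadjusted p under 0.05). The membrane nucleoporin NDC1 (-1.82 ± 0.18), the inner ring component NUP188 (-1.76 ± 0.21), the membrane nucleoporin NUP210 (-1.75 ± 0.19) and the inner ring component NUP155 (-1.10 ± 0.24) led. In J82 NDC1 (-0.78 ± 0.18) and NUP88 (-0.71 ± 0.19) fell, with a list median of -0.12. Both J82 calls were lost without J82 control replicate 2 or 3, and that of NUP88 in 8 of the 12 fits that left out 1 array. The RT112 count ran from 10 to 14 when 1 array was left out, and the NUP155 difference from -1.35 to -0.77.

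Of 10 measured genes of HP1 and heterochromatin 3 fell in RT112, the histone H3K9 methyltransferases SUV39H2 (-1.21 ± 0.16) and SUV39H1 (-0.73 ± 0.14) and the corepressor TRIM28 (-1.03 ± 0.22), and 1, KMT5B, rose (0.55 ± 0.15). The KMT5B call was lost in 6 of the 12 fits that left out 1 array. Over these fits the TRIM28 difference ran from -1.28 to -0.82. In J82 limma called 0 of them (1 lower and 2 higher unadjusted). Of 12 other high mobility group proteins and their relatives 4 fell in RT112: HMGN2 (-1.34 ± 0.18), SSRP1 (-1.13 ± 0.29) and SUPT16H (-1.07 ± 0.27) of the histone chaperone FACT, and the mitochondrial DNA-binding protein TFAM (-0.67 ± 0.17). TFAM rose in J82 (0.61 ± 0.17). The RT112 count was 1 without any 1 of the RT112 control arrays, 2 without palbociclib replicate 1 and 1 with array medians made equal. Without palbociclib replicate 1 the RT112 differences were -0.78 for SUPT16H (limma adjusted p = 0.0701) and -0.55 for TFAM (0.0694). That of SSRP1 ran from -1.37 to -0.74 when 1 array was left out. Of the 12 fits that left out 1 array, the TFAM call was lost in 9 in J82 and in 5 in RT112.

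Of 4 measured genes of lamin farnesylation and processing 1, the farnesyltransferase subunit FNTA, rose in RT112 (0.93 ± 0.16), and 0 passed in J82 (2 higher unadjusted). Among 4 other measured enzymes of the sterol synthesis pathway of LBR, CYP51A1 (1.90 ± 0.31), MSMO1 (4.0 ± 0.36) and DHCR7 (2.46 ± 0.24) rose in RT112, where LBR fell. TM7SF2, which encodes the other sterol C14 reductase, had a difference of 0.43 there and passed only at an unadjusted limma p under 0.05. In RT112 controls 3 of these 4 enzymes were called lower than in J82 controls (median -2.63), against 14.7% of all genes. LBR was higher in RT112 controls (1.77). In J82 limma called 0 of the 4 (1 lower unadjusted).

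**Figure D4:**
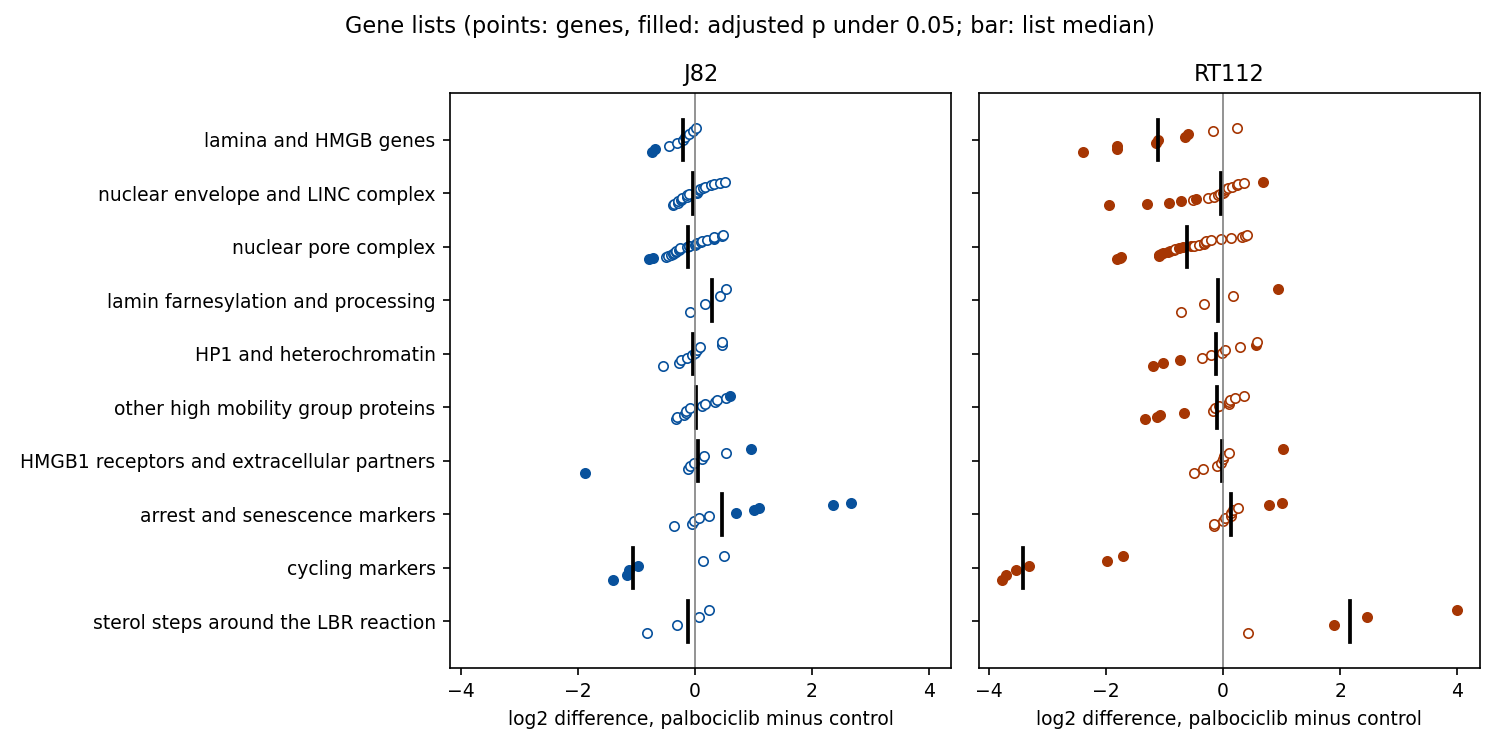
Log2 difference, palbociclib minus control, of every measured gene of the lamina and HMGB set and of 9 related lists in J82 (left) and RT112 (right); filled points passed at an adjusted p under 0.05 and black bars are list medians. The set's median lies at -0.20 in J82 and -1.11 in RT112, and the cycling markers lie at -1.05 and -3.42.

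Of 6 cycling markers all fell in RT112 (median -3.42), and 4 fell in J82 (median -1.05), MKI67 (-1.40 ± 0.27), CCNB1 (-1.15 ± 0.22), TOP2A (-1.13 ± 0.21) and CCNA2 (-0.97 ± 0.19). PCNA (0.15) and MCM2 (0.49) did not pass in J82, and PCNA fell by 3.53 ± 0.18 in RT112. The part of the cycling fraction in the falls of lamina and HMGB genes was not tested. Of 10 measured arrest and senescence markers 5 rose in J82, GDF15 (2.68 ± 0.15), IL6 (2.37 ± 0.35), CXCL8 (1.10 ± 0.16), the CDK4/6 inhibitor gene CDKN2B (1.01 ± 0.19) and CDKN1B (0.70 ± 0.15). In RT112 2 of the 10 rose, IL1A (1.0 ± 0.14) and CXCL8 (0.79 ± 0.16). The CDK inhibitor genes CDKN1A (-0.008 in J82 and 0.17 in RT112) and CDKN2A (-0.04 and -0.16) passed in neither line. MMP3 was lower in J82 (-0.35) only at an unadjusted limma p under 0.05 (adjusted p = 0.239). The list was drawn up with earlier results of these samples known, so its direction is not independent evidence.

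Of 8 receptors and extracellular partners of HMGB1, the receptor gene TLR4 rose in J82 (0.96 ± 0.12) and CD24 fell (-1.88 ± 0.35). In RT112 LY96, which encodes the TLR4 co-receptor MD-2, rose (1.02 ± 0.22) from a control mean of 4.71, below the array medians, and TLR4 had a difference of -0.11. The LY96 call was lost without RT112 control replicate 2 or palbociclib replicate 3. The TLR4 response differed between the lines by -1.07 ± 0.17 (adjusted p = 0.00166). Its means in RT112 were 5.38 in controls and 5.27 under palbociclib, close to or below the array medians, against 7.36 and 8.31 in J82. Whether a fall of TLR4 in RT112 could be seen at that level was not tested. AGER, the receptor RAGE, did not pass in either line, with group means from 5.38 to 5.53, close to the array medians.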

How the data were processed

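The values are log2 intensities of Affymetrix human transcriptome arrays, which the authors summarised and normalized with RMA in Expression Console, per the submitters' processing notes. No genome build is named in the sources used. Of 70523 deposited rows 67528 were transcript clusters, of which 23781 carried 1 gene symbol in the platform annotation; the row with the highest mean over the 12 arrays stood for a gene with several, which left 22465 genes. limma 3.58.1 in R 4.3.3 fitted the 4 group means (8 residual degrees of freedom) with an intensity trend in eBayes, and p-values were adjusted by Benjamini-Hochberg over all 22465 genes at a threshold of 0.05. The fit was tested on simulated data. The number of arrays limits the precision.

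All 9 members were named, and of each list up to 4 called genes with the largest difference per line. TMEM201, TMEM43, CDKN1A, CDKN1B, CDKN2A, MMP3, MCM2, TM7SF2, AGER and the LEM-domain, BAF and SUN genes were named after their values were seen. The members and lists were chosen with earlier results of these data known. Lists were matched by symbol (100 of 108 entries, and 31 of 34 markers), or by a synonym whose Entrez number was that of the gene. GLB1, on a probe set shared with another gene, was not measured. Alternatives changed the normalization, the variance model, the weights, the rows and the arrays.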

Additional observations from a re-analysis of the deposited data

Results flagged for a closer look

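For 4 genes the test of the difference between the lines passed, as the RT112 response minus the J82 response on the log2 scale. The value was -1.14 for LMNB1, where the difference was -1.82 in RT112 and -0.68 in J82. For TMPO it was -1.68, from -2.40 and -0.72. For HMGB1 it was -1.13, from -1.11 and 0.02. For HMGB2 it was -1.65, from -1.81 and -0.16. With 3 arrays in each group no array was tested as an outlier.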

How the results depend on the processing

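The number of arrays, 3 per group, limits the small differences, and the spread was pooled over both lines. The replicate numbers are shared by treated and control arrays. Deviations of equal numbers correlated at 0.172, 0.188 and 0.0751 in J82, where each correlated best with its own number, and at 0.0863, -0.193 and 0.173 in RT112, where only number 1 did, so not every pair passed 0.1 and the numbers were not taken as pairs; the J82 values are a hint from the data. With the replicate block 2 members were called in J82, 7 in RT112, 4 for the difference of responses and 3 for the control difference, as without it, and 1900, 1867, 1095 and 6125 genes. It ended 3 calls of list genes, KMT5B in RT112 (adjusted p = 0.0682) and TFAM in RT112 (0.0535) and J82 (0.0757).

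Members called in J82 were 2, but 0 with each line fitted alone (3 at an unadjusted p under 0.05), 3 after a second quantile normalization and 1 to 2 with 1 array left out. In RT112 they were 7, or 6 after the shift of all arrays to equal medians or with all transcript cluster rows, and 6 to 7 with 1 array left out. The difference of responses gave 4 to 5 and the control difference 3 to 4. Called genes in J82 were 1837 (624 lower, 1213 higher), 1045 with each line alone, 1160 with all rows and 1147 to 2416 with 1 array left out; lower and higher were 695 and 830 after the shift and 1075 and 1226 after quantile normalization. In RT112 they were 1905 (793 and 1112), 5780 with array weights, 1108 with all rows and 1131 to 2965 with 1 array left out, and 794 and 632 after the shift. The difference of responses called 1027 genes, 1625 after quantile normalization, 2384 with array weights, 602 with all rows and 688 to 1517 with 1 array left out, and the control difference 6183 (5155 to 7407).

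Signs turned only for values near 0. HMGB1 in J82 was -0.027 after the shift, -0.096 after quantile normalization, -0.0069 with array weights and -0.074 to 0.13 with 1 array left out. EMD in J82 was 0.0072 with array weights and -0.13 to 0.12. The TMPO control difference was 0.015 after quantile normalization and -0.18 to 0.068, that of EMD -0.058 to 0.20, and HMGB2 against HMGB3 in J82 -0.20 to 0.035. Beside the calls given above, quantile normalization added LBR in J82 (adjusted p = 0.0368), HMGB3 in the difference of responses (0.0297) and the LMNB2 control difference (0.0114). LBR passed the difference without RT112 palbociclib replicate 2 (0.0256). The HMGB2 control difference passed without a trend (0.0373), with array weights (0.0308), over genes above the median (0.0326) and without RT112 control replicate 1 (0.0437) or palbociclib replicate 1 (0.0434). LMNB2 in RT112 did not pass over all transcript cluster rows (0.0713). Of 40 responses of named list genes, 31 kept their call under every alternative run for them (20 or 21, some added after seeing the data), and 0 reversed. NDC1 in J82 did not pass with that line fitted alone (0.08). The causes were not tested.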
